A study of Mus musculus with 6 samples.

Results

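The genes of antioxidant defence and glutathione metabolism were followed on Illumina MouseRef-8 BeadChips in postnatal day 6 lungs of male mice of the strain FVB (FVB/N in the study's methods). The members were taken by gene symbol: the glutathione S-transferases of the Gsta, Gstk, Gstm, Gsto, Gstp, Gstt and Gstz classes, the Mgst, Gpx, Prdx, Txn and Txnrd families, Sod1 to Sod3, Cat, Nqo1, Hmox1, Hmox2, Gclc, Gclm, Gss, Srxn1, Nfe2l2 and Keap1. This gave 88 probes for 56 symbols of the 25697 probes for 18138 symbols on the array. Gsr, the gene of glutathione reductase, was also sought but has no probe in the table. Of the members, 66 probes for 47 genes were detected (detection p under 0.05) by 3 or more of the 6 arrays and were tested. The other 22 probes were not tested, and 20 of them were detected on no array. The genes Gclc, Txnrd1, Gpx5, Gpx6, Gsta1, Gsta2, Gstm3 and Gstt4 were among those with no tested probe, so nothing can be said of their change.

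The arrays compared 3 lungs labelled hSRY-ON with 3 labelled hSRY-OFF, all from males of the same strain and age. Per the study's methods, both names refer to a single-copy transgene at the H11 locus, in which a broadly active CAG promoter drives the red fluorescent protein DsRed2 and keeps a FLAG-tagged human SRY with EGFP silent. In hSRY-ON mice the DsRed2 segment had been removed by Cre recombinase that the egg of a Ddx4-Cre mother passed to the embryo, which lets human SRY be made wherever the promoter is active. The hSRY-ON mice on the arrays did not carry the Ddx4-Cre transgene themselves. The methods use hSRY-OFF for mice whose transgene is not recombined, but the study also calls its comparison animals controls, a word it uses for littermates without the hSRY transgene. Whether the hSRY-OFF lungs carried it therefore rests on their label. The arrays hold no measure of how the pups fed or grew, so an effect of body condition and one of the transgene cannot be told apart here.

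Cells dispose of reactive oxygen in steps. Superoxide dismutases turn superoxide into hydrogen peroxide, which catalase, the glutathione peroxidases and the peroxiredoxins then reduce, the last through thioredoxin and the enzymes that recharge it. Glutathione, made from cysteine, glutamate and glycine, supplies electrons to the glutathione peroxidases and is joined by the glutathione S-transferases to reactive compounds. Many of these genes are targets of the transcription factor NRF2 (gene Nfe2l2), which KEAP1 holds back until oxidants or electrophiles modify it. The lung meets more oxygen than other organs, and its airway and alveolar epithelium, lining fluid and macrophages all carry such enzymes.

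Members that differed between the groups were all higher in hSRY-ON lungs. The test was two-sided, by limma, with p-values adjusted by Benjamini-Hochberg over every tested probe and called under 0.05. Of the 66 tested member probes, 20 probes for 16 genes were higher, which is 30.3%, beside 13.6% of all 13841 probes tested. By the same limma test 0 member probes were lower, beside 13.3% of all probes. At an unadjusted p under 0.05, limma had 28 member probes higher and 2 lower. The count of lower members depended on the arrays, and was 4 without hSRY-ON replicate 1 and 2 without hSRY-ON replicate 3. In either direction the share called was 26.9% over all probes. A called change of at least 2-fold was found for 10 member probes of 9 genes (15.2%), where 5.51% of all probes had such a rise. Such a fall was found for 0 member probes, beside 4.19% of all probes. The median fitted log2 change was 0.31 over the tested members and -0.03 over all tested probes. A fitted change above 0 was found for 49 member probes (74.2%) and for 46.8% of all probes. When detection on all 6 arrays was required, which leaves out both Prdx6 probes, limma called 19 of 62 member probes. All 19 were higher, beside 15.1% of all probes. In whole lung, more cells of a type and more RNA per cell cannot be told apart.

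**Figure D1:**
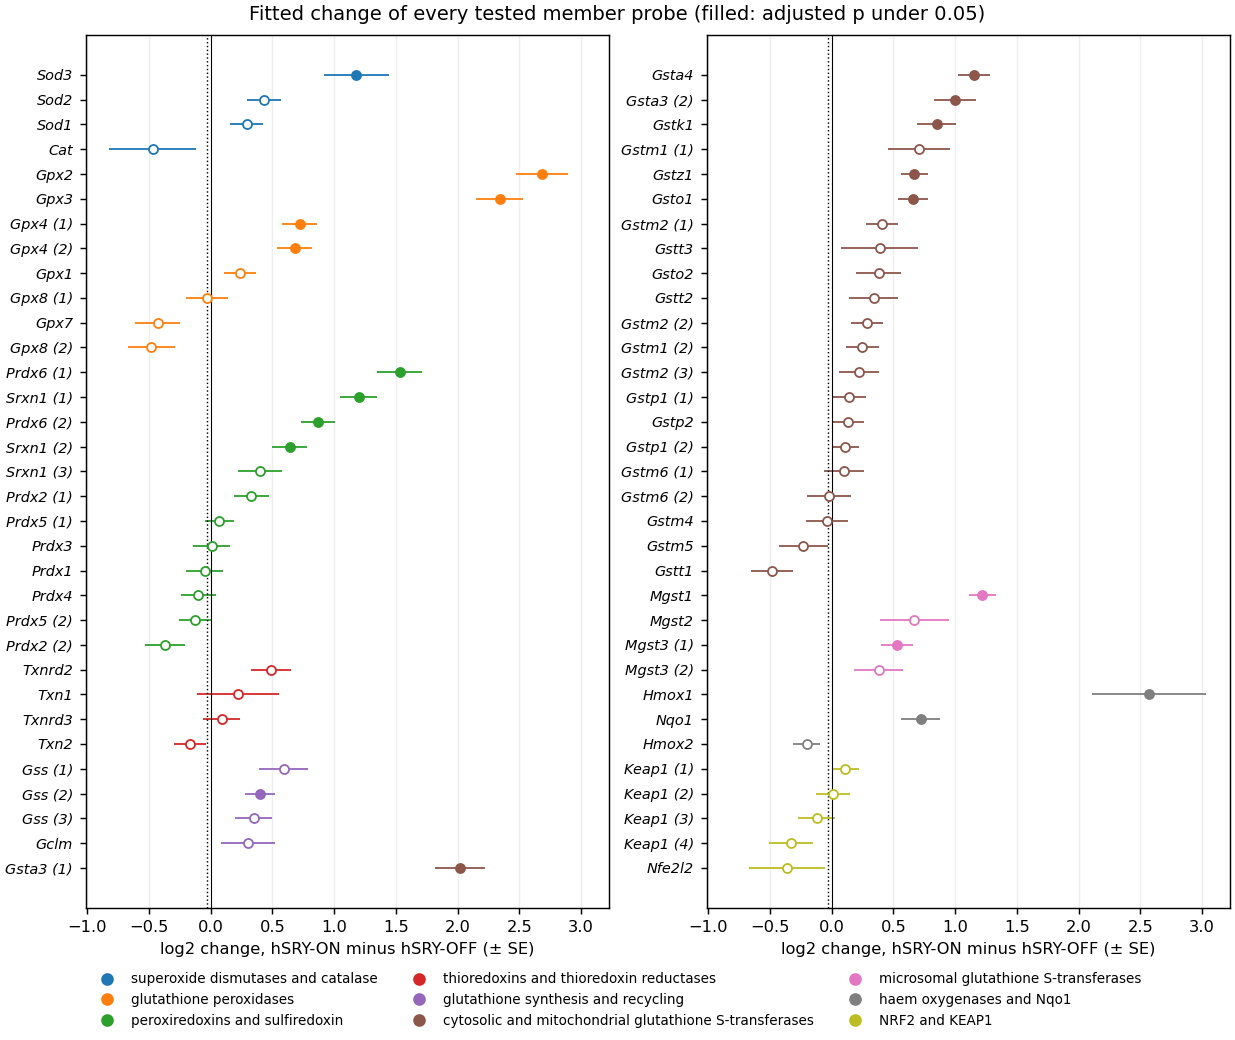
Fitted log2 change (hSRY-ON minus hSRY-OFF, x axis) with its standard error for the 66 tested member probes, coloured by role, with 3 arrays in each group. Filled circles mark an adjusted p under 0.05, the solid line is 0 and the dotted line is the median of all tested probes, -0.03. Probes of the same gene are numbered by size of change. The filled circles lie between 0.40 and 2.68, and none lies below 0.

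The values of the groups did not overlap for 28 member probes with the higher level in hSRY-ON (42.4%, beside 22.4% of all probes) and for 5 with the lower level (7.58%, beside 24.1%). The 5 probes lower on every hSRY-ON array were those of Gpx7, Gstt1 and Hmox2, 1 of the Gpx8 probes and 1 of the Prdx2 probes, and none passed the test. The hSRY-ON lungs were the more variable. The median SD of a member probe was 0.103 among hSRY-OFF arrays and 0.222 among hSRY-ON arrays (log2 scale), beside 0.13 and 0.223 over all probes. With 3 arrays against 3, the smallest p of an exact permutation test is 0.1. Each call therefore rests on limma's assumption of normally distributed values, with variance pooled across probes.

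Between 13191 and 14134 probes were detected per array, and precision is limited by the small number of arrays. As a check of the tissue, the surfactant gene Sftpc stood at a log2 intensity of 14.28 in hSRY-OFF and 14.03 in hSRY-ON lungs, and the club cell gene Scgb1a1 at 14.94 and 14.95. Lists of cell type markers moved between the groups, and their part in the member changes was not tested. By limma at an adjusted p under 0.05, alveolar type II cell markers were higher for 7 of 12 tested probes, club cell markers for 5 of 7, ciliated cell markers for 4 of 6, macrophage markers for 4 of 9 and neutrophil markers for 3 of 5. Of the called club cell probes, 1 of Scgb3a1 was detected on all 3 hSRY-ON arrays and on no hSRY-OFF array. That probe passed the filter only through the group where it was high. Endothelial markers were lower for 3 of 6 and markers of proliferating cells for 7 of 8. Beside these counts, 13.6% of all tested probes were higher and 13.3% lower. Erythroid markers were called for 0 of 5 probes by limma, with 1 higher at an unadjusted p under 0.05. Of these 5, Hba-a1 read 15.48 on every array. Quantile normalization gives the same value to a probe that has the same rank on every array. The equal readings of Hba-a1 therefore do not show that its level was the same in both groups. Of 10 hepatocyte genes, Alb, Ttr, Fgb, Cps1 and Fabp1 were detected on no array. The 3 that were tested, Ahsg, Apoa1 and Fga, were detected on all 3 hSRY-ON arrays and on no hSRY-OFF array, so they passed the filter only through the group where they are high.

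The promoters of the members were searched for the core of the antioxidant response element, TGACNNNGC, the motif to which NRF2 binds with a small MAF protein. Both strands were read, so GCNNNGTCA also counted, in the 300 bases from 250 before to 50 after each start of transcription that RefSeq gives (build GRCm38.p6, the genome of a strain other than FVB/N). A window was given for 49 of the 56 members, and 9 of these genes held the motif (18.4%), beside 14.0% of the 27025 genes with a window. By call it was 3 of the 12 genes that rose and had a window (25.0%), 5 of the 30 tested but not called (16.7%) and 1 of the 7 not tested (14.3%). A gene may have more than 1 window, and counted by window 14.1% of 64 member windows held the motif, beside 12.4% of all 32851. A match of these letters describes the sequence and does not show that the factor binds there. Nor does a window without a match show that a gene lacks the element, because only these 300 bases were read. A further 4 genes that rose had no window. The stretches of Gsta3 and Mgst1 are given because these genes rose, and those of Gclm, Prdx1 and Sod1 because they did not pass the test with the same letters before their start. The motif is in capitals, and each runs 5′ to 3′ on the strand of its gene, the plus strand in every case. They lie at chr1:21240434-21240502 (Gsta3), chr6:138140441-138140509 (Mgst1), chr3:122245393-122245461 (Gclm), chr4:116685436-116685504 (Prdx1) and chr16:90220676-90220744 (Sod1).
Gsta3: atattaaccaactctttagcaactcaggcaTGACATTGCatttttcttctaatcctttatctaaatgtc
Mgst1: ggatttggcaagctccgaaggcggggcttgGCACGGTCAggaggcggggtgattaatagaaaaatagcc
Gclm: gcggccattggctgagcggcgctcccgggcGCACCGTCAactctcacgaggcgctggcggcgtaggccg
Prdx1: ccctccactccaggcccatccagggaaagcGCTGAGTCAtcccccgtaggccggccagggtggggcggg
Sod1: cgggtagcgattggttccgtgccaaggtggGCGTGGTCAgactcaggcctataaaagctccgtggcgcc
The motif begins 121 bases before the start in Gsta3, 56 in Mgst1, 134 in Gclm, 133 in Prdx1 and 56 in Sod1. The letters stand in the direction of the gene in Gsta3 and on the other strand in the rest. The third gene that rose with a match was Srxn1, whose motif begins 28 bases after the start.

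Among the superoxide dismutases, 1 of 3 rose. The normalized log2 intensity of Sod3, the secreted dismutase that binds to the extracellular matrix, was 7.29, 7.87 and 7.57 on the hSRY-OFF arrays and 8.81, 9.19 and 8.27 on the hSRY-ON arrays. Every hSRY-ON value lay above every hSRY-OFF value. The fitted log2 change was 1.18 (SE 0.26, a fold of 2.26, limma adjusted p = 0.0171). Leaving out hSRY-OFF replicate 1 gave 1.04 (limma, adjusted p = 0.0676), and leaving out hSRY-OFF replicate 3 gave 1.18 (limma, adjusted p = 0.0558). Sod2, the manganese enzyme of mitochondria, went from 11.38 ± 0.0994 (SD, n = 3) to 11.81 ± 0.21 (SD, n = 3), and its change of 0.43 missed the threshold (limma, adjusted p = 0.0636). The groups did not overlap, and Sod2 was called at 0.54 without hSRY-ON replicate 3 (limma, adjusted p = 0.0287). Sod1, the abundant copper and zinc enzyme of the cytosol whose promoter is shown above, also had no overlap, from 12.91 ± 0.0308 to 13.19 ± 0.18 (SD, n = 3 each), with a change of 0.29 (limma, adjusted p = 0.139).

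Catalase, the peroxisomal enzyme that splits hydrogen peroxide, behaved differently on 1 hSRY-ON array. The Cat probe read 8.55, 8.61 and 8.31 in hSRY-OFF lungs, and 8.88, 7.72 and 7.48 in hSRY-ON lungs. The first hSRY-ON value is the highest of all, and the others lie under every hSRY-OFF value. The fitted change was -0.47 (SE 0.35, limma adjusted p = 0.351), and without hSRY-ON replicate 1 it was -0.90 and passed the test (limma, adjusted p = 0.0087).

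Of 8 tested probes for 6 genes, 4 probes for 3 genes rose and none fell. Gpx2, a peroxidase of epithelial cells, measured 8.07, 7.69 and 8.07 in hSRY-OFF and 10.64, 10.96 and 10.25 in hSRY-ON lungs. The lowest hSRY-ON value was above the highest hSRY-OFF value by more than the range within either group. The change was 2.68 (SE 0.21), a fold of 6.39 (limma, adjusted p = 0.000714), and it ranged from 2.15 to 2.85 over the 17 alternative settings, all of which called it. This was the largest fitted change among the members with all 6 arrays, but without hSRY-ON replicate 2 or 3 that of Hmox1 was larger (2.74 and 2.94, against 2.48 and 2.85).

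Gpx3, the secreted form found in plasma and in the airway lining fluid, was 11.39, 11.51 and 11.42 in hSRY-OFF and 13.67, 14.17 and 13.50 in hSRY-ON lungs. The groups were far apart against their spread, and the fold was 5.05 (log2 change 2.34, SE 0.19, limma adjusted p = 0.000778). Gpx4, which reduces lipid hydroperoxides within membranes, rose by both of its probes. The brighter probe went from 11.61 ± 0.14 to 12.32 ± 0.15 (SD, n = 3 each), a change of 0.72 (SE 0.14, limma adjusted p = 0.0107). The dimmer one rose by 0.68 (limma, adjusted p = 0.0153), with 6.55, 6.42 and 6.77 in hSRY-OFF against 7.14, 7.42 and 7.21 in hSRY-ON lungs. Without hSRY-OFF replicate 1 neither Gpx4 probe passed, at 0.65 and 0.66 (limma, adjusted p = 0.0529 and 0.065), nor did the dimmer one without hSRY-OFF replicate 2, at 0.60 (limma, adjusted p = 0.0669).

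The remaining glutathione peroxidases did not pass the test with all 6 arrays. Gpx1, the main cytosolic form, read 14.75, 14.45 and 14.51 in hSRY-OFF and 14.77, 14.91 and 14.75 in hSRY-ON lungs, which overlap at 14.75. Gpx7 and Gpx8 belong to the endoplasmic reticulum and carry cysteine in place of selenocysteine. Gpx7 was 11.09 ± 0.0712 in hSRY-OFF and 10.66 ± 0.34 in hSRY-ON (SD, n = 3 each), a change of -0.43 (limma, adjusted p = 0.123) that was called lower at -0.60 on leaving out hSRY-ON replicate 3 (limma, adjusted p = 0.0329). The probes of Gpx8 disagreed, one with a change of -0.48 and no overlap (limma, adjusted p = 0.102) and the other with -0.03. The first was called lower without hSRY-ON replicate 1, at -0.68, and with array weights, at -0.54 (limma, adjusted p = 0.00917 and 0.0409).

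Of the peroxiredoxins and sulfiredoxin, 4 of 12 tested probes rose, all of them for Prdx6 and Srxn1. Prdx6 encodes the peroxiredoxin that also acts as a phospholipase in the turnover of surfactant lipids. Its better detected probe gave 5.61, 5.70 and 5.40 in hSRY-OFF and 7.01, 7.44 and 6.86 in hSRY-ON lungs, with no overlap. The change was 1.53 (SE 0.18, a fold of 2.89, limma adjusted p = 0.0024), and the second probe rose by 0.87 (limma, adjusted p = 0.00606). Both probes were dim. They were detected on 2 and 1 of the 3 hSRY-OFF arrays and on all 3 hSRY-ON arrays. Their entry to the test therefore depended on the hSRY-ON arrays, where they are high. Neither was tested when detection on all 6 arrays was required.

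Srxn1 encodes sulfiredoxin, which repairs peroxiredoxins that have been over-oxidised, and it is a well known NRF2 target. The brightest of its 3 probes read 8.10, 7.96 and 8.13 in hSRY-OFF and 9.08, 9.53 and 9.20 in hSRY-ON lungs. These do not overlap, and the change was 1.20 (SE 0.15, a fold of 2.30, limma adjusted p = 0.00277). The second probe rose by 0.64 (limma, adjusted p = 0.017), and missed the threshold on leaving out replicate 2 or 3 of hSRY-OFF (0.61 and 0.58, limma adjusted p = 0.0722 and 0.0651). The third was near background, with detection by 1 array of hSRY-OFF and 2 of hSRY-ON, and its change of 0.40 was not called (limma, adjusted p = 0.136) except without hSRY-ON replicate 1 (0.57, limma adjusted p = 0.0229).

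The other peroxiredoxins gave smaller differences. Prdx1, whose promoter is shown above, stood at 13.36 ± 0.0871 and 13.31 ± 0.24 (SD, n = 3 each). Prdx3 of mitochondria and Prdx4 of the secretory pathway had changes of 0.01 and -0.10, and the 2 probes of Prdx5 had 0.07 and -0.13. For Prdx2, abundant in red blood cells, the bright probe read 14.42, 14.22 and 14.37 in hSRY-OFF and 14.21, 13.71 and 14.01 in hSRY-ON lungs. Its values did not overlap and its change was -0.37 (limma, adjusted p = 0.123), while the dim probe had 0.33 (limma, adjusted p = 0.117). The bright one was called lower without hSRY-ON replicate 1, at -0.49 (limma, adjusted p = 0.0449), and with a variance trend, at -0.37 (limma, adjusted p = 0.0492). Beside this, the summed intensity of the erythroid markers was 58236 to 66458 in hSRY-OFF and 58651 to 66231 in hSRY-ON lungs. In that sum the value of Hba-a1 was made equal on all arrays by the normalization.

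With all 6 arrays, limma called 0 of the 4 tested probes of the thioredoxin system. At an unadjusted p under 0.05, 1 probe was higher, that of Txnrd2, the thioredoxin reductase of mitochondria. It measured 7.80, 7.71 and 8.08 in hSRY-OFF and 8.41, 8.53 and 8.11 in hSRY-ON lungs, a change of 0.49 with no overlap (limma, adjusted p = 0.0628). It was called at 0.60 on leaving out hSRY-ON replicate 3 and at 0.33 without background correction (limma, adjusted p = 0.0321 and 0.0492). Txn1, the cytosolic thioredoxin, gave 6.58, 6.38 and 5.91 in hSRY-OFF and 7.23, 6.17 and 6.12 in hSRY-ON lungs, so that only the first hSRY-ON array stood above the hSRY-OFF values. Mitochondrial Txn2 and the testis-rich reductase Txnrd3 had changes of -0.17 and 0.09. Txnrd1, the cytosolic reductase and an NRF2 target, had 1 probe, detected on no array.

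Glutathione synthesis was represented by Gss and Gclm. All 4 of their tested probes had a fitted change above 0, and 1 passed the test. Gss, glutathione synthetase, which adds glycine in the last step, was called by 1 of its 3 probes, at 7.92, 7.69 and 7.87 in hSRY-OFF and 8.30, 8.20 and 8.17 in hSRY-ON lungs. This was a change of 0.40 (SE 0.12, limma adjusted p = 0.0471), and it had no overlap. The other Gss probes had changes of 0.59 and 0.35, also without overlap (limma, adjusted p = 0.0642 and 0.117). The Gss call was the least stable of all. It was lost on leaving out any one of the 6 arrays, with changes from 0.33 to 0.45 and adjusted p from 0.0604 to 0.167 by limma.

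Gclm, the modifier subunit of the enzyme for the first and limiting step and the member whose promoter holds the motif 134 bases before the start, read 8.79, 8.82 and 8.67 in hSRY-OFF and 9.57, 8.85 and 8.74 in hSRY-ON lungs. The first hSRY-ON array was high and the others lay within or just above the hSRY-OFF range, and the change of 0.30 did not pass (SE 0.22, limma adjusted p = 0.356). On leaving out hSRY-ON replicate 1 it was 0.0383 (limma, adjusted p = 0.828). The catalytic subunit Gclc had 1 probe, detected on no array.

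**Figure D2:**
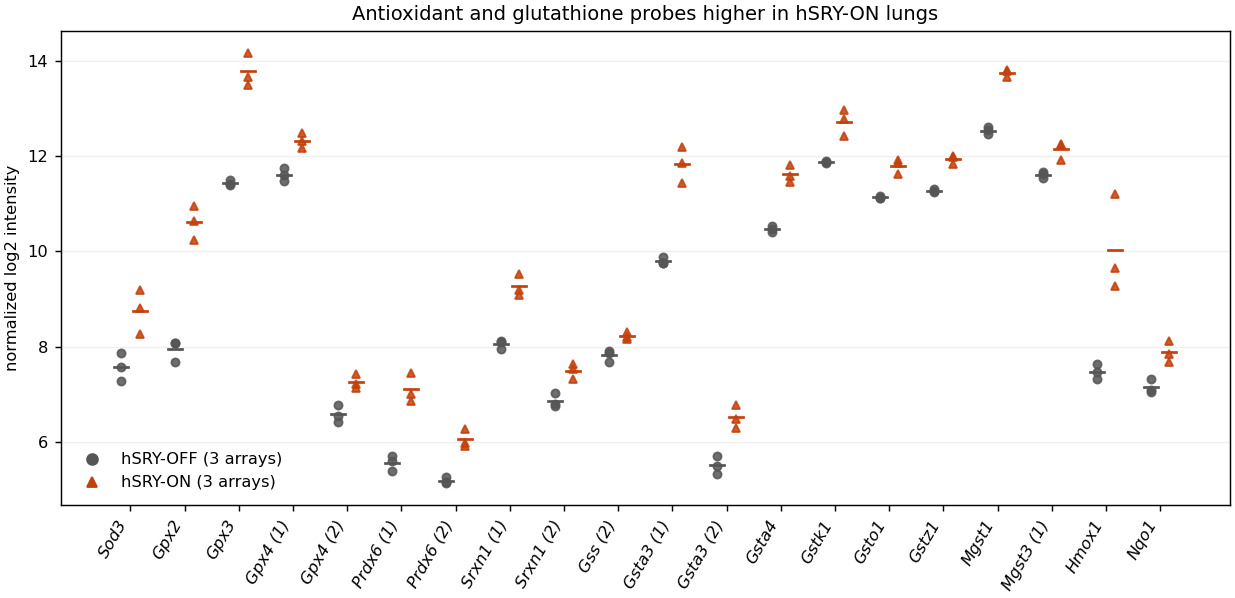
Normalized log2 intensity (y axis) of the 20 member probes called higher, on each of the 3 hSRY-OFF arrays (grey circles) and 3 hSRY-ON arrays (orange triangles). Short lines are group means. The triangles stand above the circles for all 20 probes, and the 3 triangles of Hmox1 spread from 9.27 to 11.20. Intensities of different probes cannot be compared with each other.

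Of the cytosolic and mitochondrial glutathione S-transferases, 6 of 22 tested probes rose, for 5 of 16 tested genes. The alpha class had the largest changes. Gsta3, an alpha class enzyme whose promoter is shown above, measured 9.75, 9.76 and 9.89 by its brighter probe in hSRY-OFF and 12.19, 11.86 and 11.43 in hSRY-ON lungs. The groups lay far apart, with a fold of 4.07 (log2 change 2.02, SE 0.20, limma adjusted p = 0.00139). The dimmer probe rose by 1.0 (limma, adjusted p = 0.00741). Gsta4, which removes the lipid peroxidation product 4-hydroxynonenal, went from 10.41, 10.47 and 10.53 to 11.59, 11.45 and 11.82. This also left no overlap, at a fold of 2.22 (log2 change 1.15, SE 0.13, limma adjusted p = 0.00234). Gsta1 and Gsta2 were detected on no array.

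The other called transferases came from classes with single genes or few. Gstk1, found in mitochondria and peroxisomes, was 11.88, 11.85 and 11.89 in hSRY-OFF and 12.97, 12.78 and 12.43 in hSRY-ON lungs, a change of 0.85 (SE 0.16, limma adjusted p = 0.01). Gstz1, which also serves as maleylacetoacetate isomerase in the breakdown of tyrosine, rose by 0.67 (SE 0.11, limma adjusted p = 0.0072), from 11.28 ± 0.0377 to 11.94 ± 0.0959 (SD, n = 3 each). Gsto1, an omega class enzyme that reduces dehydroascorbate, rose by 0.66 (SE 0.12, limma adjusted p = 0.01), from 11.14 ± 0.0328 to 11.80 ± 0.15 (SD, n = 3 each). None of these 3 genes had overlapping groups. Gsto2, the second omega gene, had 0.38 with overlapping groups and was not called (limma, adjusted p = 0.155). Gsto1 narrowly missed the threshold without hSRY-OFF replicate 1 (0.65, limma adjusted p = 0.0501).

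In the fit reported here limma called 0 of the probes of the mu, pi and theta classes, but some mu and theta probes were called under alternatives. At an unadjusted p under 0.05, 2 of them were higher, for Gstm1 and Gstm2, and 1 was lower, for Gstt1. Within the mu class Gstm1 had the largest change, 10.24, 10.14 and 10.07 in hSRY-OFF against 11.38, 10.82 and 10.36 in hSRY-ON lungs. It was higher on all 3 hSRY-ON arrays, at 0.71 (SE 0.25, limma adjusted p = 0.0727), and its second, dim probe had 0.25. The first was called under 6 of the 17 alternatives, at 0.65 to 0.95, the highest being without hSRY-ON replicate 3 (limma, adjusted p = 0.015). The 3 bright probes of Gstm2 had 0.22, 0.29 and 0.41, the last without overlap (limma, adjusted p = 0.0572). It was called under 7 alternatives, at 0.40 to 0.62, among them that without hSRY-ON replicate 2 (0.51, limma adjusted p = 0.0346). Under median scaling all 3 were called. Gstm4, Gstm5 and the 2 probes of Gstm6 ranged from -0.23 to 0.10. In the pi class, Gstp1 had 0.11 and 0.14 and Gstp2 had 0.13. In the theta class, Gstt1 had -0.48 with no overlap (limma, adjusted p = 0.0793), the lowest change among the transferases, while Gstt2 and Gstt3 had 0.34 and 0.39. Gstt1 was called lower under 3 alternatives, at -0.63 to -0.44, the lowest being without hSRY-ON replicate 3 (limma, adjusted p = 0.0258). Near-identical genes of the mu and pi classes may share target sequence with each other's probes, which was not examined because probe sequences were not used here.

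The microsomal transferases, which sit in membranes, rose for 2 of 4 tested probes. Mgst1, abundant in the endoplasmic reticulum and the outer mitochondrial membrane, was 12.46, 12.61 and 12.54 in hSRY-OFF and 13.79, 13.80 and 13.67 in hSRY-ON lungs. The hSRY-ON values were as tight as those of hSRY-OFF, and the fold was 2.33 (log2 change 1.22, SE 0.11, limma adjusted p = 0.0012). Mgst3, a relative of leukotriene C4 synthase, rose by 0.53 for one probe (SE 0.13, limma adjusted p = 0.0281) and had 0.38 for the other, which overlapped between groups (limma, adjusted p = 0.187). The Mgst3 call was lost on leaving out replicate 1, 2 or 3 of hSRY-OFF (0.53, 0.55 and 0.50, limma adjusted p = 0.0957, 0.083 and 0.0912) or replicate 3 of hSRY-ON (0.47, limma adjusted p = 0.0572). Under a replicate block it had an adjusted p = 0.0694 by limma. Mgst2 had 0.67 and overlapping groups (limma, adjusted p = 0.121).

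Hmox1 and Nqo1, widely used as indicators of NRF2 activity, both rose. Hmox1, the inducible haem oxygenase, which breaks haem into biliverdin, iron and carbon monoxide, was 7.32, 7.46 and 7.64 in hSRY-OFF and 11.20, 9.65 and 9.27 in hSRY-ON lungs. All hSRY-ON values were well above hSRY-OFF, but their SD of 1.02 was the widest of any tested member. The change was 2.57 (SE 0.46, a fold of 5.92, limma adjusted p = 0.00889), and it was 1.99 without hSRY-ON replicate 1 (limma, adjusted p = 0.00192). The constitutive Hmox2 read 10.31, 10.41 and 10.25 in hSRY-OFF and 10.17, 10.17 and 10.03 in hSRY-ON lungs, a small shift without overlap (-0.20, limma adjusted p = 0.227). Macrophages are a known site of Hmox1, and the summed intensity of the macrophage markers was 3194 to 3477 in hSRY-OFF and 6205, 10986 and 6886 in hSRY-ON replicates 1, 2 and 3. On the same 3 arrays the macrophage receptor gene Marco read 8.70, 8.35 and 7.01. The other called macrophage markers were highest on hSRY-ON replicate 2 and lowest on hSRY-ON replicate 1. Cd14 read 9.45, 10.85 and 10.14, Cd68 10.38, 11.49 and 10.65, and Mrc1 11.74, 12.47 and 11.79. The probes of Csf1r and Adgre1 were not called. The part of macrophages in the Hmox1 rise was not tested.

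Nqo1, the quinone reductase, measured 7.33, 7.09 and 7.06 in hSRY-OFF and 8.12, 7.68 and 7.85 in hSRY-ON lungs. There was no overlap, and the change was 0.72 (SE 0.16, a fold of 1.65, limma adjusted p = 0.0158). It missed the threshold when hSRY-OFF replicate 2 or 3 was left out (0.69 and 0.68, limma adjusted p = 0.0683 and 0.0608). A second Nqo1 probe was detected on no array.

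The regulators themselves were not called. By limma 0 of the 5 tested probes of Nfe2l2 and Keap1 passed, and 0 had an unadjusted p under 0.05. Nfe2l2 gave 8.32, 8.21 and 8.35 in hSRY-OFF and 8.64, 7.85 and 7.32 in hSRY-ON lungs, so the hSRY-ON values straddled the hSRY-OFF range. The change was -0.36 (SE 0.31, limma adjusted p = 0.416), and without hSRY-ON replicate 1 it was -0.71 and passed (limma, adjusted p = 0.0288). The 4 probes of Keap1, the adaptor that directs NRF2 to degradation, had changes of 0.11, 0.01, -0.12 and -0.33, each with overlapping groups. Of these, 2 changed sign on leaving out single arrays. The probe at 0.01 was -0.00167 and -0.0479 on leaving out replicates 2 and 3 of hSRY-OFF, and -0.0885 on leaving out replicate 3 of hSRY-ON, and the probe at -0.12 was 0.00159 without hSRY-ON replicate 1. These are levels of mRNA, and NRF2 is controlled mainly through its protein, which the arrays do not measure.

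The first hSRY-ON array stood apart for many members. Over the tested member probes, hSRY-ON replicate 1 was the highest of the 3 hSRY-ON arrays in 32 of 66 (48.5%), against 31.7% of all tested probes. Its median difference from the hSRY-OFF mean over the members was 0.42, where hSRY-ON replicates 2 and 3 had 0.16 and 0.30. It was the highest in 7 of the 8 member probes with the widest hSRY-ON spread, namely those of Hmox1, Cat, Nfe2l2, Gstt3, Txn1, Mgst2 and Gstm1, with Sod3 the exception. Gstt3, a theta class transferase, shows the pattern plainly, at 9.62, 8.65 and 8.38 in hSRY-ON beside 8.35, 8.50 and 8.62 in hSRY-OFF lungs. Without this array its change went from 0.39 to 0.02 and that of Txn1 from 0.22 to -0.15, both uncalled. Among the 20 called probes, hSRY-ON replicate 1 was the highest in 8 and hSRY-ON replicate 2 in 9, and 19 of the 20 were still called without hSRY-ON replicate 1.

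**Figure D3:**
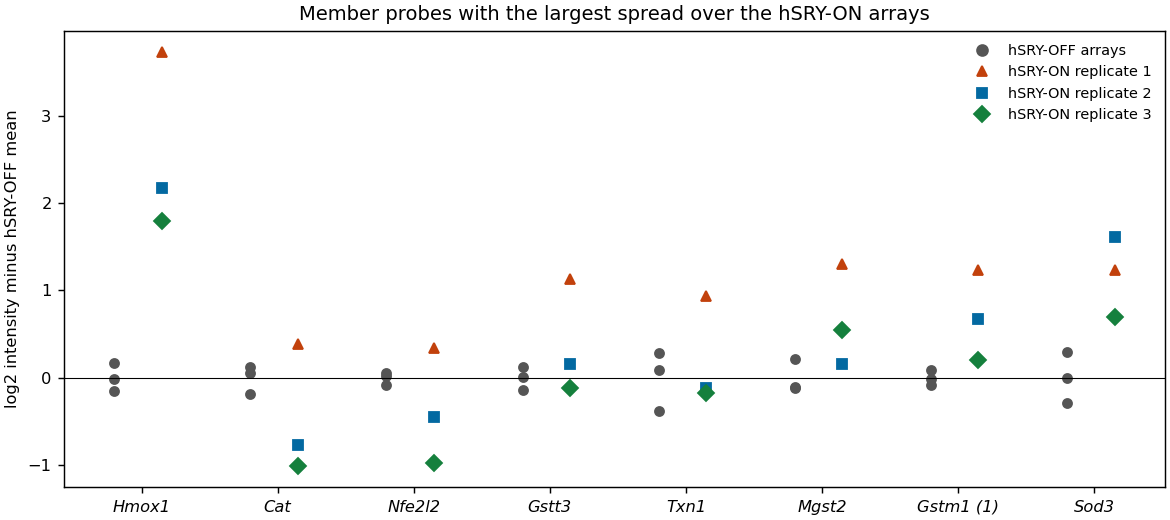
Log2 intensity minus the hSRY-OFF mean of the same probe (y axis) for the 8 member probes with the largest SD over the hSRY-ON arrays, with 1 point per array. Grey circles are the 3 hSRY-OFF arrays, and the triangle, square and diamond are hSRY-ON replicates 1, 2 and 3. The triangle is uppermost of the hSRY-ON points for 7 of the 8 probes. For Cat and Nfe2l2 it is above 0 while the other hSRY-ON points are below.

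How far a dim member rose depended on how the background was removed. Without any background correction, 7 of the 20 called changes were smaller by over 1.5 times, although all 20 were still called. Both Prdx6 probes went from 1.53 and 0.87 to 0.57 and 0.24. The dimmer probes of Gsta3, Gpx4 and Srxn1 went from 1.0, 0.68 and 0.64 to 0.33, 0.31 and 0.32. Nqo1 went from 0.72 to 0.41 and Gss from 0.40 to 0.26. Bright members hardly moved, as Gpx3 went from 2.34 to 2.28 and Mgst1 from 1.22 to 1.20. The size of the Prdx6 rise is therefore uncertain, and the fold of 2.89 holds for this correction only.

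**Figure D4:**
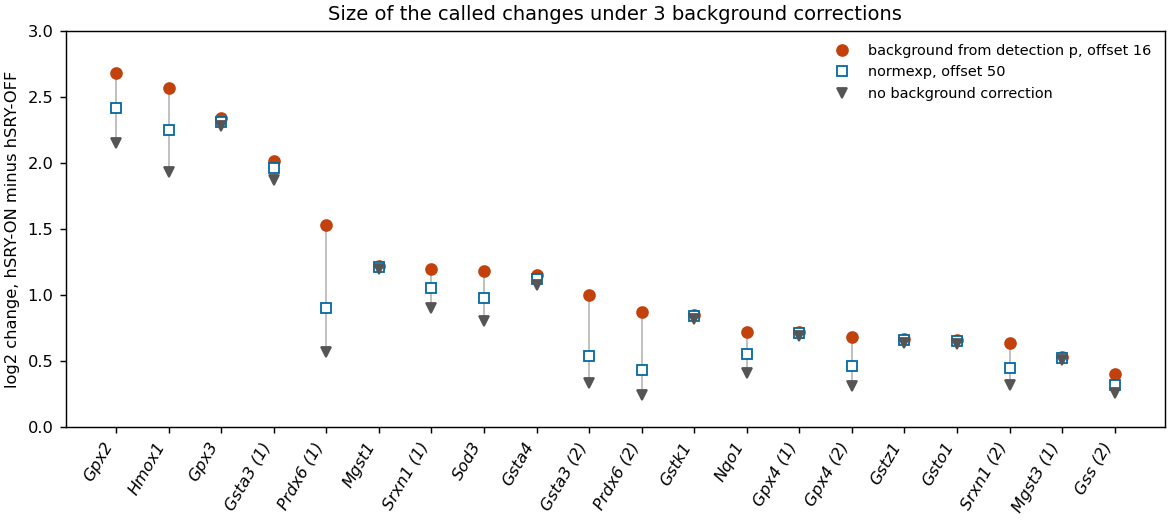
Fitted log2 change (hSRY-ON minus hSRY-OFF, y axis) of the 20 called member probes under background estimated from the detection p with an offset of 16 (orange circles), normexp with an offset of 50 (blue squares) and no background correction (grey triangles). Grey lines join the first and the last. The points nearly coincide for Gpx3, Mgst1, Gsta4 and Gstk1 and are furthest apart for Prdx6, Gsta3 (2) and Hmox1.

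The enzymes and factors that work beside the members were read from 8 lists of 72 genes in all. Of these genes 55 were tested by 66 probes, of which 19 were higher and 4 lower by limma at an adjusted p under 0.05. Over all tested probes 13.6% were higher and 13.3% lower, and the counts of single lists below stand beside the same shares. The median change was 0.25 over the lists and -0.03 over all tested probes. In the list of NADPH supply, the source of electrons for glutathione and thioredoxin reductases, 2 of 7 probes rose, those of Pgd (0.63, limma adjusted p = 0.00753) and G6pdx (0.50, limma adjusted p = 0.0313), dehydrogenases of the pentose phosphate pathway. The count of 23 calls over the 8 lists fell to 10 on leaving out replicate 1 or replicate 2 of hSRY-OFF, and to 13 on leaving out replicate 3 of hSRY-OFF or replicate 2 of hSRY-ON. The 4 lower probes belonged to Ggt7, Bach2 and Esd (2 probes), and Ggt7 and Esd are named here after their values were seen. Slc7a11 and Ncf1, both called higher, and those 2 Esd probes passed the filter only through the group where they were high.

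In cystine import and glutathione turnover, 3 of 6 probes rose and 1 fell. Slc7a11, the cystine transporter that feeds glutathione synthesis and a target of NRF2 and ATF4, was not detected on any hSRY-OFF array and was detected on all 3 hSRY-ON arrays, at 7.58, 7.08 and 7.86. It was at least 4.65-fold higher in hSRY-ON lungs (limma, adjusted p = 0.000691), but it passed the filter only through the group where it was high. The bound sets the hSRY-ON mean against the lowest level that counted as detected on the hSRY-OFF arrays. Dpep1, a membrane dipeptidase that splits cysteinylglycine from glutathione breakdown, went from 8.54, 8.81 and 8.94 to 12.09, 11.79 and 11.94, a fold of 9.02 (log2 change 3.17, limma adjusted p = 0.000246). Oplah, the oxoprolinase of the glutathione cycle, rose by 1.39 (limma, adjusted p = 0.00231), and the transferase-like Ggt7 fell by 0.76 (limma, adjusted p = 0.0372).

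The glutaredoxins and their neighbours gave 4 of 11 probes higher and 0 lower by limma, with 2 lower at an unadjusted p under 0.05. The median change of this list was -0.3. Every uncalled probe, those of Glrx2, Glrx3, Glrx5, Msrb2 and Msrb3, had a change below 0. Txnip, which binds and inhibits thioredoxin, rose by 1.02 (limma, adjusted p = 0.00723), the cytosolic glutaredoxin Glrx by 0.53 (limma, adjusted p = 0.025) and the selenium-containing methionine sulfoxide reductase Msrb1 by 0.83 and 0.77 for its 2 probes (limma, adjusted p = 0.0207 and 0.0362). Among partners and repressors of NRF2, Sqstm1, which can sequester KEAP1, rose by 0.57 (limma, adjusted p = 0.0136), and the repressor Bach2 fell by 0.50 (limma, adjusted p = 0.0373), with the other 7 of 9 probes not called. In haem and iron handling, 1 of 4 probes rose, that of Blvrb, a biliverdin reductase acting downstream of haem oxygenase (0.68, limma adjusted p = 0.0255).

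Of other detoxifying genes linked to NRF2, 5 of 12 probes rose and 2 fell. Osgin1, an oxidative stress response gene, was 5.90, 6.12 and 6.03 in hSRY-OFF and 7.93, 8.22 and 7.87 in hSRY-ON lungs (log2 change 1.99, limma adjusted p = 0.000598). Aldh3a1, an aldehyde dehydrogenase of airway and corneal epithelium, rose by 2.91 (limma, adjusted p = 0.00139) and the glutathione conjugate exporter Abcc3 by 1.19 (limma, adjusted p = 0.00161). One Esd probe, for an esterase that hydrolyses S-formylglutathione, was lower by at least 1.9-fold (limma, adjusted p = 0.00602). The Esd probe detected on all 6 arrays had -0.21 and was not called. Both lower Esd probes were detected on no hSRY-ON array, so they passed the filter only through the group where they were high. Oxidant-producing enzymes were higher for 3 of 7 probes. These were Xdh, xanthine dehydrogenase (2.35, limma adjusted p = 0.000474), Ncf4 (1.33, limma adjusted p = 0.0146) and Ncf1. The Ncf1 probe was not detected in hSRY-OFF and was at least 1.5-fold higher (limma, adjusted p = 0.0278). It passed the filter only through the group where it was high. Ncf1 and Ncf4 are subunits of the phagocyte NADPH oxidase, and the summed neutrophil markers beside them were 4630 to 5243 in hSRY-OFF and 8396 to 29907 in hSRY-ON lungs. For the genes that handle selenium, which several glutathione peroxidases need, 0 of 10 probes were called by limma, with 2 higher and 3 lower at an unadjusted p under 0.05.

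**Figure D5:**
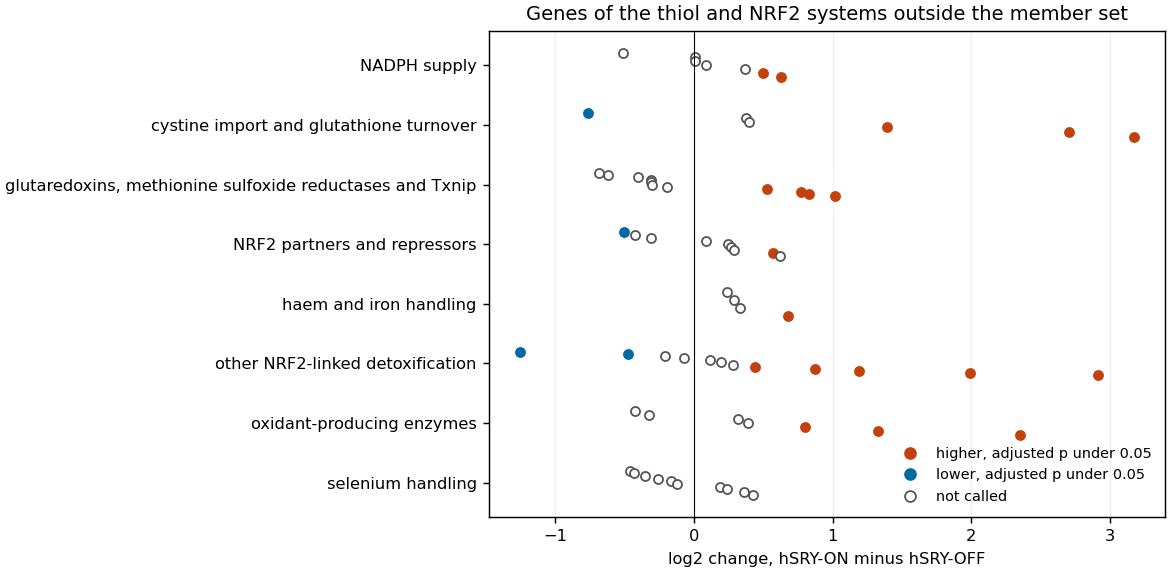
Fitted log2 change (hSRY-ON minus hSRY-OFF, x axis) of the 66 tested probes in 8 lists of genes that work beside the members, with 1 point per probe and the vertical offset within a list used only to part the points. Orange and blue mark probes higher and lower at an adjusted p under 0.05, and open circles those not called. Points for Slc7a11, Ncf1, the lower of the Glrx3 probes and the Esd probes called lower are fitted values of probes detected on no array of 1 group. Selenium handling has no called probe.

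The levels of epithelial markers are given beside the members known from epithelium. Gpx2, Aldh3a1, Gsta3 and Mgst1 are known from the airways, and Prdx6 from alveolar type II and club cells. The summed intensity of the club cell markers was 52158 to 54208 in hSRY-OFF and 63753 to 78501 in hSRY-ON lungs, that of the alveolar type II markers 74661 to 76011 and 90669 to 95085, and that of the ciliated cell markers 7801 to 8186 and 9744 to 11545. None of these ranges overlapped between the groups. The sums of alveolar type I markers, 32784 to 36545 and 34449 to 37229, did overlap. The type II list was mixed, with 7 of 12 probes called higher. Its probes for Sftpc (-0.25) and Lamp3 (-0.31 and -0.18) and 1 for Abca3 (-0.07) had changes below 0, all uncalled. The part of these cell types in the rise of the members was not tested.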

How the data were processed

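Total RNA from 6 lungs was hybridised to 6 arrays, 1 per mouse. The authors deposited, per probe and array, an intensity on a linear scale, not normalized, and a detection p-value. The deposited intensity has a median of 177 to 204 per array. The software that summarised the beads is not given in the sources used here. The study analysed its arrays with TCC, a count-based method, while the submitters' processing notes name limma. As the values are intensities, limma 3.58.1 in R 4.3.3 was used.

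The detection p-values gave the background estimate (limma's nec, offset 16), followed by quantile normalization and log2. Quantile normalization removes any overall shift between groups, and the offset compresses dim signals. A probe was kept where 3 or more of the 6 arrays detected it (detection p under 0.05), which held for 13841 of 25697. The comparison used lmFit and eBayes with no covariates and Benjamini-Hochberg adjustment over the kept probes at a threshold of 0.05. Each probe was counted on its own, also within a gene. A probe not detected in 1 group is given as a bound, the mean of the detected group against the mean, over the other arrays, of the higher of its own value and the lowest detected value. No 2 arrays held identical values. The pipeline was tested on simulated data.

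Members were matched by symbol, and 55 of 56 symbols stand under the same name in the RefSeq table (GRCm38.p6), from which the promoter windows also come. Values are given for every member gene with a called probe and, whatever their result, for Nfe2l2, Keap1, Nqo1, Hmox1, Gclc, Gclm, Srxn1, Txnrd1, Sod1 to Sod3 and Cat. One result on a member is not reported here. In each other list at most 3 called genes were named, by smallest p, with the exceptions stated. Members and lists, the 12 marker lists included, were chosen with earlier results of these data known. The marker lists for cardiac muscle (1 of 7 probes higher, 1 lower) and adipocytes (0 probes tested) were also read. The alternatives were other background corrections, normalizations, filters and thresholds, a variance trend with robust estimation, array weights, a replicate block and leaving out each array.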

Additional observations from a re-analysis of the deposited data

How the results depend on the processing

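Of 17 alternatives, 11 of the 20 called member probes were called in every one that tested them. The count of members called lower, 0 in the report, was 1 without background correction, 2 with a variance trend and robust estimation, 1 with array weights and 0 to 4 on leaving out 1 array. At an adjusted p under 0.01, 11 members were called, all 11 higher, beside 11 probes of the other pathway genes and 1326 of all probes. Leaving out 1 array gave 14 to 24 members called (14 to 21 higher), 10 to 25 probes of the other pathway genes and 1507 to 4385 of all probes. The median change of the members was 0.13 without a detection filter, which adds probes detected on few or no arrays, and 0.25 to 0.39 on leaving out 1 array. The cause of the other shifts was not tested. Under median scaling, Sod1 and Sod2 were called higher, at 0.59 and 0.62 (limma, adjusted p = 0.0264 and 0.0236). Of the Keap1 probes, 2 changed sign on leaving out single arrays, from -0.0885 to 0.0878 for one, with -0.00167 and -0.0479 between, and from -0.23 to 0.00159 for the other. For the named probes, 506 comparisons with an alternative kept direction and call, 34 lost the call, 10 gained it and 4 changed sign.

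Replicate numbers are shared between the groups, but same-numbered arrays did not deviate together (correlations -0.107, 0.0958 and -0.0927). Pairs with different numbers ranged from -0.0885 to 0.162. These correlations give no sign of pairing by number, but with 3 arrays a group they cannot show whether mice shared litters. With the replicate block, 18 member probes were called, all higher, and those of Gss and Mgst3 were not. With 3 arrays a group, a difference within the spread of the hSRY-ON arrays, such as that of Mgst2, was not detectable, which does not show that it is absent.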
